A study of Mus musculus with 15 samples.

Results

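The 10 immediate early genes Fos, Fosb, Fosl2, Jun, Junb, Egr1, Egr2, Arc, Npas4 and Nr4a1 were followed by RNA-seq in mouse cerebellar cells. They were taken by name from a table of 21889 genes, and all 10 passed the filter on low counts. The study sampled medulloblastoma, a cerebellar tumour, and granule neuron precursors, from which the granule neurons of the cerebellum are formed by division. Precursors came from embryos at E15.5, whose genotype is labelled Math1-GFP, and from WT mice at P1, P7 and P14. The tumour cells (MB) are labelled Ptch1 heterozygous, with no age. Each of the 5 groups held 3 libraries of poly(A) RNA, 15 in all. Cells were purified on Percoll and went straight into Trizol, per the labels' protocols, and no treatment was given for any group. The labels do not say whether the libraries of a group came from separate animals or tumours, so the p-values measure the spread between these libraries, which may be technical.

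Immediate early genes are transcribed within minutes of a stimulus and need no newly made protein, because the factors that switch them on (SRF, CREB and MEF2) already sit in the cell. Neuronal activity acts on them through calcium, and growth factors act on them through the ERK pathway. Taking tissue apart can raise the same genes. Most of them encode transcription factors. The Fos and Jun proteins pair to form AP-1, the Egr proteins are zinc finger factors, Nr4a1 is an orphan nuclear receptor, and Npas4 is a factor induced in neurons by calcium entry. Arc is the exception, a protein of the postsynaptic side that takes part in synaptic plasticity.

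The libraries held between 12597472 and 43443132 counts in genes. Atoh1 and Barhl1, which define granule neuron precursors, were detected in every library. Atoh1 stood at 123.6 to 138.5 CPM (counts relative to the library total, scaled by TMM) at E15.5, at 24.5 to 65.4 CPM at P1, at 23.6 to 39.1 CPM at P7, at 10.9 to 13.1 CPM at P14 and at 236 to 322 CPM in MB. The granule neuron markers Rbfox3 and Neurod1 were also present in every group, with Rbfox3 at 406 to 551 CPM at P7 and 484.5 to 551 CPM at P14, so the libraries of both ages held RNA of maturing neurons beside the labelled precursors. The gene Tsnax alone was used to split the libraries into 2 sets, called counting sets here. The sources do not name such sets or say what differed in their processing. The Tsnax count in the gene table was at least 92.4% of that in the transcript table in 9 libraries. It was at most 0.273% in the other 6, which were E15.5 replicates 1 and 3, all of P7, and MB replicate 1. No P7 library shares a set with P1 or P14, so for P7 against these ages the set and the age cannot be told apart. With counts from the transcript table in place of the gene table, no member gained or lost a call in any comparison. MB replicate 1 stood apart in the immediate early genes: it had the lowest level of its group for 10 of the 10, against 43.6% of the 15259 genes tested, so MB results are given with and without it.

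Promoters are shown because 9 of the 10 genes moved together in the comparison of P1 with E15.5, described further on. RefSeq windows in build GRCm38.p6, from 250 bases before to 50 bases after the start site, were found for 8 of the 10 genes. Egr1 and Arc had none. The search covered both strands for the full cyclic AMP response element (CRE) TGACGTCA, its core TGACG, the CArG box that SRF binds, the AP-1 site TGANTCA, the EGR site GCGNGGGCG and the TATA box TATAAA. A full CRE contains the core on each strand. The share of all promoters was counted by window, and the 8 genes had 12 windows, 5 of them of Egr2. The core was found in 6 of the 8 genes (8 of the 12 windows) and in 20.8% of all 32851 promoters of the table. The CArG box was found in 1 gene, Egr2 (4 of the 12 windows), and in 1.63% of all promoters. The EGR site was found in Fosb, Fosl2 and Nr4a1, 3 of the 8 genes, and in 5.55% of all promoters. The TATA box was found in Fos and Junb, 2 of the 8, and in 13.6% of all promoters. The Junb match began at base 1, on the annotated start site itself and not before it. None of the 8 held a full CRE (1.79% of all promoters) or the AP-1 site (7.81%), which says only that these letters are not in these windows. The windows printed are those of the 4 genes with at least 2 CRE or CArG matches: Fos (chr12:85473640-85473939, plus strand), Egr2 (chr10:67537619-67537918, plus strand, 1 of 5 alternative windows), Npas4 (chr19:4989922-4990221, minus strand) and Nr4a1 (chr15:101266596-101266895, plus strand). Capitals mark the CRE core on either strand and the CArG box.
Fos: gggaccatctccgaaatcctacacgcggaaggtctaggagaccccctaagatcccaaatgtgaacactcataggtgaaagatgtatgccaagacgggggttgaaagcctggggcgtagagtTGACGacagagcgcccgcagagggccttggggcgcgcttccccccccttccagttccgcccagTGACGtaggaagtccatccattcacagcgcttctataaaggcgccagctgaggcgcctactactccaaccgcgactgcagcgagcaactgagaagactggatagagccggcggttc
Egr2: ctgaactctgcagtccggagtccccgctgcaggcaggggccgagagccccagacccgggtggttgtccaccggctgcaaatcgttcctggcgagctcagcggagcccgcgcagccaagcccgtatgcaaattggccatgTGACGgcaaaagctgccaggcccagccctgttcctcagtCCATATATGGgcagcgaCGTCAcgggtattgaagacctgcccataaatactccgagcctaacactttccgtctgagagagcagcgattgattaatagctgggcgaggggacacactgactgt
Npas4: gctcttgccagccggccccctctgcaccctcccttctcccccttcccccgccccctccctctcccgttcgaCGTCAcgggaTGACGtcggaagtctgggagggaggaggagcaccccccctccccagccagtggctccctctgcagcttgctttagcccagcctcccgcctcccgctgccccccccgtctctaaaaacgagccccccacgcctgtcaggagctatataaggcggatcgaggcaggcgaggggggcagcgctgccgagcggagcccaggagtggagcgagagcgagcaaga
Nr4a1: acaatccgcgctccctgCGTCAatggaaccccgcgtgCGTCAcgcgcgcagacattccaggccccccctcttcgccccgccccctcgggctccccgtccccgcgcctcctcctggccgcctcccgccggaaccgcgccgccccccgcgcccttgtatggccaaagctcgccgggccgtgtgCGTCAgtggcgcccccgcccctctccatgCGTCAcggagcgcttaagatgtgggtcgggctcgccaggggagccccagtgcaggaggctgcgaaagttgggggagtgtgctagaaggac
Fos had its CRE cores at 129 and 66 bases before the start site and its TATA box at 33 bases before it. In Egr2 the CArG box began 72 bases before the start site, between a CRE core on the plus strand at 111 bases and one on the minus strand at 55 bases. Npas4 had 2 CRE cores pointing away from each other, on the minus strand at 179 and on the plus strand at 169 bases before the start site. Nr4a1 had 4 CRE cores, all on the minus strand of the window.

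**Figure D1:**
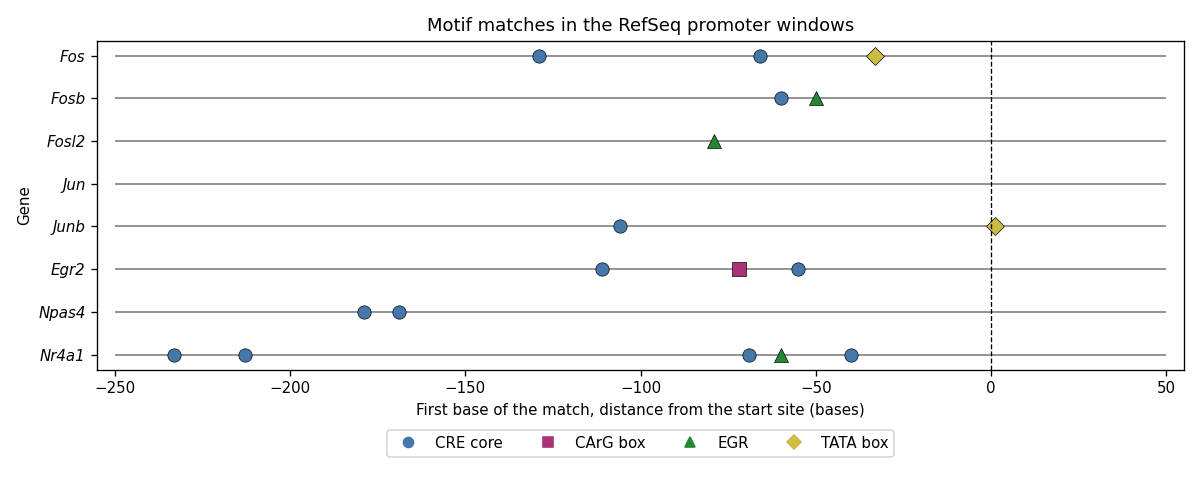
Motif matches in the promoter windows of 8 immediate early genes. The x axis is the distance of the first base of a match from the start site in bases, each grey line is 1 gene's window, and symbols mark the motif; for Egr2 the printed window is drawn. Jun had no match, and Nr4a1 had the most CRE cores, 4.

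Among the AP-1 genes, Fos (mm9 chr12:86814840-86818223, plus strand, 4 exons) was lowest at E15.5. It stood at 6.72, 34.9 and 8.01 CPM in E15.5 replicates 1 to 3, at 345, 523 and 711 CPM in P1, at 893, 477 and 555 CPM in P7, at 972, 1033 and 1004 CPM in P14, and at 25.9, 373 and 220 CPM in MB. Every P14 library was above every P7 library, and MB replicate 1 fell inside the range of E15.5. Fosb (mm9 chr7:19888070-19895394, minus strand, 4 exons), a close relative of Fos that also makes a shortened and stable protein, had the same order of group means. Its levels were 4.06, 2.34 and 0.578 CPM in E15.5, 106, 159 and 243 CPM in P1, 252, 124 and 189 CPM in P7, 344, 309 and 346 CPM in P14, and 6.86, 188 and 112 CPM in MB. Fosl2 (mm9 chr5:32438845-32460204, plus strand, 4 exons), the Fos relative known as Fra-2, had another order. It was measured at 1.35, 3.09 and 0.972 CPM in E15.5, at 8.58, 13.5 and 33.4 CPM in P1, at 26.4, 19.5 and 25.0 CPM in P7, at 47.8, 46.3 and 57.8 CPM in P14, and at 70.7, 122 and 151 CPM in MB. All 3 MB libraries lay above all 12 precursor libraries for Fosl2, the only one of the 10 genes for which this held.

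Jun (mm9 chr4:94715725-94718913, minus strand, 1 exon), the main partner of Fos in AP-1, had the highest E15.5 mean of the 10 genes per length, 28.2 ± 5.97 RPKM (CPM per kilobase of exon, SD, n = 3). Its CPM were 87.4, 110.0 and 72.1 in E15.5, 222, 387 and 436 in P1, 582, 351 and 311 in P7, 632, 700.4 and 680.2 in P14, and 210.3, 773 and 660 in MB. The E15.5 libraries did not overlap with any other group. Junb (mm9 chr8:87500811-87502617, minus strand, 1 exon), a Jun relative that activates AP-1 sites less strongly than Jun, stood at 3.40, 10.7 and 4.62 CPM in E15.5. It reached 36.7, 65.5 and 128 CPM in P1, 183, 68.5 and 87.2 CPM in P7, 209, 254 and 235 CPM in P14, and 8.45, 116 and 74.5 CPM in MB. P14 was highest for Junb without overlap with another group, while the P1, P7 and MB libraries overlapped with one another.

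Egr1 (3 exons) encodes a factor induced by activity and by growth factors. It was measured at 11.1, 143 and 8.33 CPM in E15.5, at 648, 809 and 672 CPM in P1, at 987, 803 and 789 CPM in P7, at 804, 663 and 666 CPM in P14, and at 90.4, 779 and 1362 CPM in MB. The 3 postnatal ages overlapped in their range, and MB held both the highest library of all 15 and 1 below E15.5 replicate 2. Egr2 (mm9 chr10:67000618-67004936, plus strand, 3 exons), known as Krox-20 and also needed for myelination by Schwann cells, was far lower. It stood at 0.523, 2.42 and 0.131 CPM in E15.5, from 5 to 29 counts, at 23.8, 26.3 and 34.9 CPM in P1, at 49.3, 41.0 and 40.5 CPM in P7, at 45.9, 41.2 and 42.2 CPM in P14, and at 8.29, 105 and 95.5 CPM in MB. MB replicates 2 and 3 were above every precursor library for Egr2, and MB replicate 1 was below every postnatal one.

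Nr4a1 (mm9 chr15:101097277-101105223, plus strand, 7 exons), also called Nur77, stood at 2.57, 3.68 and 1.89 CPM in E15.5. It reached 22.7, 64.6 and 121 CPM in P1, 102, 71.6 and 68.9 CPM in P7, 189, 216 and 222 CPM in P14, and 5.47, 65.7 and 29.5 CPM in MB. P14 was again the highest group without overlap. Npas4 (mm9 chr19:4984355-4989971, minus strand, 8 exons) was measured at 3.58, 3.84 and 1.79 CPM in E15.5, at 4.94, 9.23 and 33.9 CPM in P1, at 13.4, 17.4 and 18.03 CPM in P7, at 58.8, 62.5 and 71.9 CPM in P14, and at 4.01, 15.02 and 20.2 CPM in MB. All 3 P14 libraries were above the other 12 for Npas4, and P1 replicate 3 was the next highest. Arc (mm9 chr15:74499513-74503000, minus strand, 3 exons) stayed low in every group. Its levels were 4.62, 6.01 and 4.46 CPM in E15.5, 5.36, 7.48 and 5.88 CPM in P1, 8.53, 9.71 and 7.63 CPM in P7, 7.49, 7.90 and 8.46 CPM in P14, and 2.14, 11.8 and 6.89 CPM in MB. Neighbouring groups in the order of the means overlapped throughout for Arc.

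**Figure D2:**
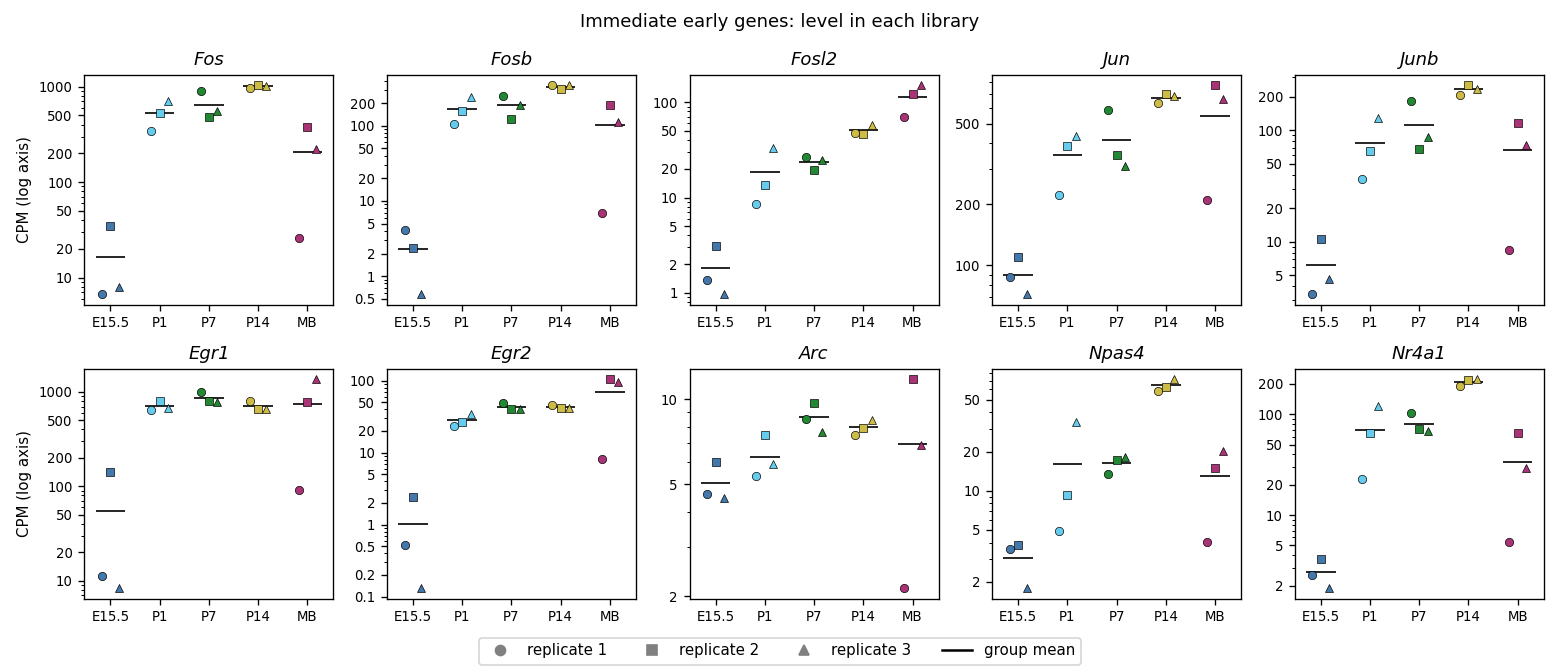
Level of the 10 immediate early genes in each of the 15 libraries, in CPM on log axes, by group. Each symbol is 1 library, its shape gives the replicate number and the line is the group mean. E15.5 lies below P1 without overlap in all panels but Arc, and MB replicate 1 (circle) is the lowest MB library in all 10.

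Per length, the P14 mean was 476 ± 14.4 RPKM for Fos, 234 ± 26.6 RPKM for Egr1, 210.4 ± 11.03 RPKM for Jun and 129 ± 12.5 RPKM for Junb (SD, n = 3). It was 88.8 ± 5.53 RPKM for Fosb and 84.5 ± 7.04 RPKM for Nr4a1. Npas4 (19.7 ± 2.07 RPKM), Egr2 (15.04 ± 0.869 RPKM), Fosl2 (8.65 ± 1.07 RPKM) and Arc (2.60 ± 0.160 RPKM) were the lowest 4. The spread between libraries of a group differed between groups. The median SD of the log2 CPM of the 10 genes was 0.11 at P14, against 0.14 over all genes tested, and 0.27 at P7, against 0.27. It was 0.56 at P1 (all genes 0.21), 0.84 at E15.5 (all genes 0.33) and 1.92 in MB (all genes 0.38). In P1, replicate 1 was the lowest library for 10 of the 10 genes (32.1% of all genes) and replicate 3 the highest for 8 (35.8% of all genes). E15.5 replicate 2 was the highest of its group for 9 (30.6% of all genes), and P7 replicate 1 for 8 (27.6% of all genes).

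The comparison of P1 with E15.5 asks how the precursors differ between an embryonic and a newborn age. Of the 10 immediate early genes, 9 were higher at P1 and none was lower, at an FDR under 0.05 (edgeR quasi-likelihood F-test, Benjamini-Hochberg over all genes). Over all 15259 genes tested, 25.4% were called higher and 20.9% lower. The log2 change was largest for Fosb, at 6.23 (SE 0.95, FDR 0.00011), where mean levels were 169 CPM at P1 and 2.32 CPM at E15.5. Egr2 rose by 5.12 (SE 0.88, FDR 0.00029), Fos by 5.02 (SE 0.82, FDR 0.00020) and Nr4a1 by 4.73 (SE 0.75, FDR 0.00015) on the log2 scale. Egr1 (3.73, FDR 0.0055), Junb (3.66, FDR 0.0012), Fosl2 (3.47, FDR 7.7e-05), Npas4 (2.42, FDR 0.0063) and Jun (1.96, FDR 0.0011) were also higher, each with no overlap between libraries. That held for 9 of the 10 genes and 30.5% of all genes. Arc had a log2 change of 0.32 (SE 0.41, FDR 0.55) and was not called. Leaving out P1 replicate 3 ended the call of Npas4, with a log2 change of 1.24 (FDR 0.067), and lowered Fosl2 to 2.73, Junb to 3.08 and Nr4a1 to 4.06. Without E15.5 replicate 2, the change was 6.19 for Egr1, 6.15 for Fos and 6.56 for Egr2. Fosb was at 7.08 without E15.5 replicate 1 and at 5.63 without E15.5 replicate 3, where Egr2 was at 4.36. Inside the counting set that holds all P1 libraries, E15.5 replicate 2 was the only E15.5 library. It was the highest of its group for 9 of the 10 genes (30.6% of all genes). The log2 change there was 2.06 for Npas4, 2.31 for Egr1, 3.54 for Egr2, 3.91 for Fos, 2.58 for Fosl2 and 2.84 for Junb.

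Markers of several other cell types also rose between E15.5 and P1, and the genotype label differed too, Math1-GFP at E15.5 and WT at P1. All 8 endothelial and mural markers were called higher, and their summed level went from 22.4 to 60.7 CPM at E15.5 to 525 to 984 CPM at P1. The same held for 8 of 8 astroglial markers (356 to 508 against 2948 to 4411 CPM), 8 of 8 oligodendrocyte markers (67.9 to 102.0 against 584 to 3540 CPM) and 8 of 8 fibroblast and meningeal markers (109.5 to 154 against 985 to 1510 CPM). Of the microglia and macrophage markers, 7 of 8 were called higher (5.10 to 23.6 against 78.4 to 139.6 CPM). The defining endothelial marker Cldn5 stood at 1.00 to 9.17 CPM at E15.5 and at 108 to 146 CPM at P1. None of the 2 defining markers of any of these lists was at 0. Of 8 GABAergic interneuron markers, 7 were called lower at P1 (775 to 936 CPM in sum at E15.5 against 305.5 to 487 CPM). Of 8 Purkinje cell markers, 2 were higher and 2 lower (560 to 826 against 303 to 444.5 CPM). P1 replicate 3 was the highest P1 library for 8 of the 10 immediate early genes. It also held the highest oligodendrocyte sum of P1, 3540 CPM against 584 and 924 CPM. Its granule neuron sum was 3167 CPM, against 1276 and 1238 CPM. Its precursor sum was the lowest, 3184 CPM against 4816 and 4277 CPM. Its astroglial, endothelial and mural, and microglia and macrophage sums were also the highest of P1. Its fibroblast and meningeal, Purkinje cell and GABAergic interneuron sums were not. The part of these cells in the result was not tested, and the age and the genotype label cannot be told apart. In these bulk libraries, a change in the share of a cell type and a change in RNA per cell cannot be told apart either.

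Between P1, P7 and P14 the groups lay much closer. None of the 10 genes was called in P7 against P1 by edgeR, in either direction, none had an unadjusted p under 0.05, and DESeq2 called none. Over all genes, 1.4% were called higher and 1.74% lower. Egr2 (log2 change 0.62, SE 0.68) and Arc (0.47, SE 0.40) were the 2 genes whose P7 libraries were all above the P1 libraries, against 14.1% of all genes. In P14 against P7, 1 of the 10 was called higher, Npas4, and none lower, where 5.81% of all genes were higher and 4.51% lower. No member was lower at an unadjusted p under 0.05 or by DESeq2. Its log2 change was 1.99 (SE 0.60, FDR 0.048), from 16.3 ± 2.51 to 64.4 ± 6.77 CPM (SD, n = 3), and with any 1 of the 6 libraries left out the FDR rose to between 0.096 and 0.14. The P14 libraries were all above the P7 libraries for 7 of the 10 (Fos, Fosb, Fosl2, Jun, Junb, Npas4 and Nr4a1), against 24.9% of all genes. Egr1 (log2 change -0.27, SE 0.86), Egr2 (-0.017, SE 0.67) and Arc (-0.12, SE 0.40) were the other 3. With only the P7 and P14 libraries in the fit, 5 of the 10 were called higher (Npas4, Fosb, Fosl2, Junb and Nr4a1), and 15.2% of all genes were. From P7 to P14 the oligodendrocyte sum went from 894 to 1741 to 5394 to 5869 CPM (2 of 8 markers called higher, 1 lower). The endothelial and mural sum went from 447 to 671 to 1266 to 1374 CPM (1 of 8 higher). The granule neuron sum went from 3469 to 3653 to 3932 to 4683 CPM (5 of 8 higher). Precursor and GABAergic interneuron markers went the other way, with 5 of 8 called lower in each. Of fibroblast and meningeal markers 1 was higher, and of Purkinje cell markers 1 was lower. No microglia and macrophage or astroglial marker was called. The part of these markers in the result was not tested.

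P14 against P1 gave no call at an FDR under 0.05 by edgeR with all 15 libraries in the fit, where 3.63% of all genes were called higher and 5.31% lower. At an unadjusted p under 0.05, 5 of the 10 were higher, against 14.2% of all genes, and DESeq2 called 2. The P14 libraries were all above the P1 libraries for 9 of the 10, all but Egr1, against 26.5% of all genes. Npas4 had a log2 change of 2.01 (SE 0.60, FDR 0.050) and Fosl2 one of 1.45 (SE 0.44, FDR 0.051). Junb stood at 1.60 (SE 0.68, FDR 0.14), Nr4a1 at 1.59 (SE 0.63, FDR 0.12), and Egr1 at 0.0037 (SE 0.86, FDR 1.00). With only the P1 and P14 libraries in the fit, 7 of the 10 were called higher, and 12.9% of all genes were. With the 3 postnatal ages alone, a fit added after the data were seen, it was 8, against 10.1% of all genes. Without P1 replicate 3, 3 were called, with Npas4 at 3.18 (FDR 0.0017), Fosl2 at 2.19 (FDR 0.0023) and Nr4a1 at 2.26 (FDR 0.041). The share of all genes called in that fit was not counted. Beside these values, the oligodendrocyte sum went from 584 to 3540 CPM at P1 to 5394 to 5869 CPM at P14. The endothelial and mural sum went from 525 to 984 to 1266 to 1374 CPM. The granule neuron sum went from 1238 to 3167 to 3932 to 4683 CPM. Of these lists, 1 of 8 granule neuron markers was called higher, 1 of 8 oligodendrocyte markers lower, and no endothelial or mural marker. In other lists, 4 of 8 precursor, 3 of 8 GABAergic interneuron and 1 of 8 Purkinje cell markers were called lower. No microglia and macrophage, astroglial, or fibroblast and meningeal marker was called. The part of these markers in the result was not tested.

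In 1 test over the 4 ages, 9 of the 10 differed, all but Arc (FDR 0.31), as did 55.7% of all genes. Fosl2 had the lowest FDR of the 10, 2.8e-05, and Egr1 the highest of the 9, 0.016.

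**Figure D3:**
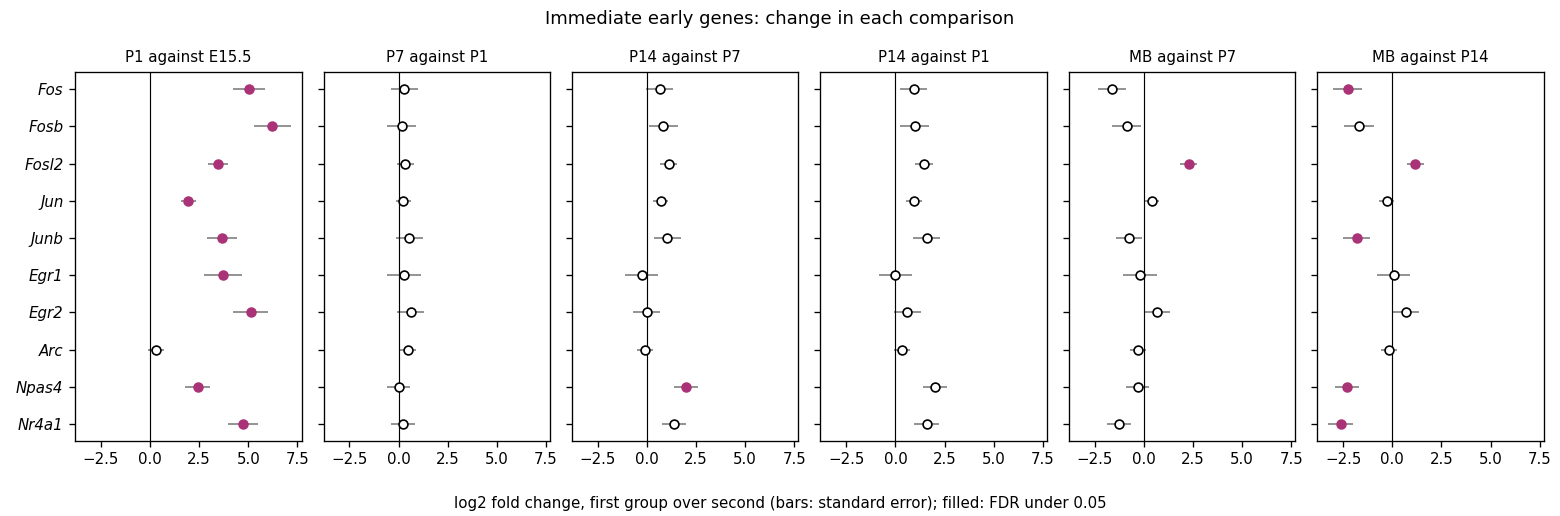
log2 fold change of each immediate early gene in 6 comparisons, first group over second, with bars of 1 standard error. Filled points passed an FDR of 0.05 (edgeR, 15 libraries); 9 did so in P1 against E15.5, none in P7 against P1 or P14 against P1, 1 in P14 against P7 and in MB against P7, and 5 in MB against P14.

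The comparison of the tumour with P7 asks how medulloblastoma cells differ from precursors at the age of strong proliferation. Only Fosl2 was called higher among the 10, where 13.7% of all genes were, and none was called lower by edgeR, where 20.7% of all genes were. At an unadjusted p under 0.05, 1 of the 10 was lower, and DESeq2 called none lower. Fosl2 rose by 2.28 on the log2 scale (SE 0.45, FDR 0.0010), from 23.6 ± 3.65 CPM at P7 to 114 ± 40.4 CPM in MB (SD, n = 3). Fos had a log2 change of -1.64 (SE 0.71, FDR 0.088) and Nr4a1 one of -1.26 (SE 0.63, FDR 0.14), and for both every MB library lay below every P7 library. That held for 2 of the 10 genes and 23.9% of all genes. Egr1 (-0.21, SE 0.86), Egr2 (0.67, SE 0.67) and Jun (0.40, SE 0.38) had MB libraries on both sides of P7. Of the endothelial and mural markers, 7 of 8 were lower in MB than at P7 (33.6 to 46.0 against 447 to 671 CPM in sum). Of the microglia and macrophage markers 4 of 8 were higher (142 to 415 against 44.4 to 144.5 CPM). Fibroblast and meningeal markers and GABAergic interneuron markers were lower in 8 of 8 each, and granule neuron markers in 3 of 8. Purkinje cell markers had 6 lower and 1 higher, astroglial markers 5 and 1, and oligodendrocyte markers 5 and 2. Of the precursor markers, 6 of 8 were higher. The part of these markers in the result was not tested.

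The MB mean hides a wide spread, because 9 of the 10 genes, all but Fosl2, were more than 3-fold lower in MB replicate 1 than in the highest MB library. The ratio of the highest to the lowest MB library was 27.4 for Fosb, 15.1 for Egr1, 14.4 for Fos, 13.8 for Junb, 12.6 for Egr2 and 12.01 for Nr4a1. It was 5.50 for Arc, 5.05 for Npas4, 3.67 for Jun and 2.13 for Fosl2. Without MB replicate 1, Jun was called higher than P7 as well (0.79, FDR 0.048), Fosl2 stood at 2.53, and Fos at -1.11 (FDR 0.14). Without MB replicate 2, 2 genes were called lower than P7, Fos at -2.39 (FDR 0.035) and Nr4a1 at -2.21 (FDR 0.019). Inside the counting set that holds MB replicate 1 and the P7 libraries, that 1 library gave 8 lower calls among the 10 (14.9% of all genes), with Fos at -4.59 and Egr2 at -2.35, and 1 higher call, Fosl2 at 1.63 (FDR 0.0041, 10.2% of all genes). MB replicate 1 is also the only MB library of its counting set, so the library and the set cannot be told apart. Its microglia and macrophage sum was 415 CPM, against 172 and 142 CPM in MB replicates 2 and 3. Its heat shock sum was 1276 CPM, between 1423 and 1198 CPM, and its granule neuron precursor sum was 8116 CPM, against 8726 and 8134 CPM. Its sum over 29 other immediate early genes was 672 CPM, against 2155 and 1997 CPM. Of its records, 39.5% fell in genes, against 49.0% and 47.6%, and 44.6% had several alignments, against 31.98% and 30.7%. The part of these in the result was not tested.

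Against P14, Fosl2 was again the only one of the 10 called higher, where 22.9% of all genes were, and 4 were called lower, where 27.2% of all genes were. Nr4a1 was lower by a log2 change of -2.63 (SE 0.66, FDR 0.0036), Npas4 by -2.30 (SE 0.61, FDR 0.0055), Fos by -2.28 (SE 0.72, FDR 0.016) and Junb by -1.81 (SE 0.69, FDR 0.039). Each of these 4, and Fosb (-1.70, SE 0.75, FDR 0.074), had all MB libraries below all P14 libraries, as 32.7% of all genes did. Fosl2 was 1.17 higher on the log2 scale (SE 0.43, FDR 0.034), with no overlap, as for 28.7% of all genes. Jun (-0.29), Egr1 (0.065), Egr2 (0.69) and Arc (-0.19) overlapped between the groups. Without MB replicate 1, Nr4a1 (-2.13, FDR 0.0040), Npas4 (-1.87, FDR 0.016) and Fos (-1.76, FDR 0.021) were still called lower and Junb was not (-1.28, FDR 0.058), and Egr2 was called higher beside Fosl2 (1.22, FDR 0.039). The call of Junb was also lost without MB replicate 3 or any 1 P14 library, and with only MB and P14 in the fit (-1.81, FDR 0.083). The call of Fosl2 was lost without MB replicate 2 or 3 or any 1 P14 library, with an FDR between 0.060 and 0.12. Inside the counting set that holds MB replicates 2 and 3 and P14, 3 were called higher, Egr2 at 1.25 and Egr1 at 0.61 beside Fosl2, and 5 lower, where 30.8% and 31.0% of all genes were. Without MB replicate 2, Fos stood at -3.03, Junb at -2.49 and Nr4a1 at -3.58, and Fosb was called lower too (-2.48, FDR 0.029). Endothelial and mural markers went the same way as the 4 lower genes: 8 of 8 were lower in MB, at 33.6 to 46.0 CPM in sum against 1266 to 1374 CPM at P14. So did 8 of 8 granule neuron markers (990 to 1533 against 3932 to 4683 CPM) and 5 of 8 oligodendrocyte markers. Another 2 oligodendrocyte markers were called higher in MB. Fibroblast and meningeal (8 of 8), GABAergic interneuron (7 of 8), Purkinje cell (6 of 8) and astroglial markers (5 of 8) were also called lower. The other way went 8 of 8 precursor markers, 4 of 8 microglia and macrophage markers and 1 Purkinje cell marker, called higher in MB. The part of these markers in the result was not tested. The MB comparisons with P7 and P14 share the MB libraries.

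Shares within the Fos and Jun families were taken from the summed RPKM of their genes. Fos made up 69.6% to 93.2% of the Fos family at E15.5, 82.2% to 86.2% in the P1, P7 and P14 libraries and 46.9% to 71.4% in MB, which overlapped with E15.5. Fosl2 made up 0.758% to 1.71% in the postnatal libraries and 46.1%, 8.38% and 16.1% in MB replicates 1 to 3. At E15.5 the Fosl2 share was 2.97% to 5.05%, at a level of 0.308 ± 0.193 RPKM (SD, n = 3), against 19.5 ± 6.91 RPKM in MB. The MB libraries overlapped with no other group in the Fosl2 share. Jund, a Jun relative that is made without a stimulus, held 41.2% to 62.2% of the Jun family at E15.5 and 17.2% to 31.6% in the other groups, where MB (17.2% to 21.4%) overlapped with P1 and P7. Junb rose from 3.02% to 8.61% at E15.5 to 28.4% to 30.6% at P14, where the 3 libraries of each group did not overlap, and held 5.48% to 16.6% in MB, which overlapped with E15.5 and P1. The ratio of Egr1 to Fos per length was 0.722 to 2.84 at E15.5, 0.656 to 1.3 at P1, 0.768 to 1.17 at P7, 0.446 to 0.575 at P14 and 1.45 to 4.3 in MB. MB lay above the postnatal libraries in this ratio, and E15.5 replicate 2 fell inside the MB range.

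**Figure D4:**
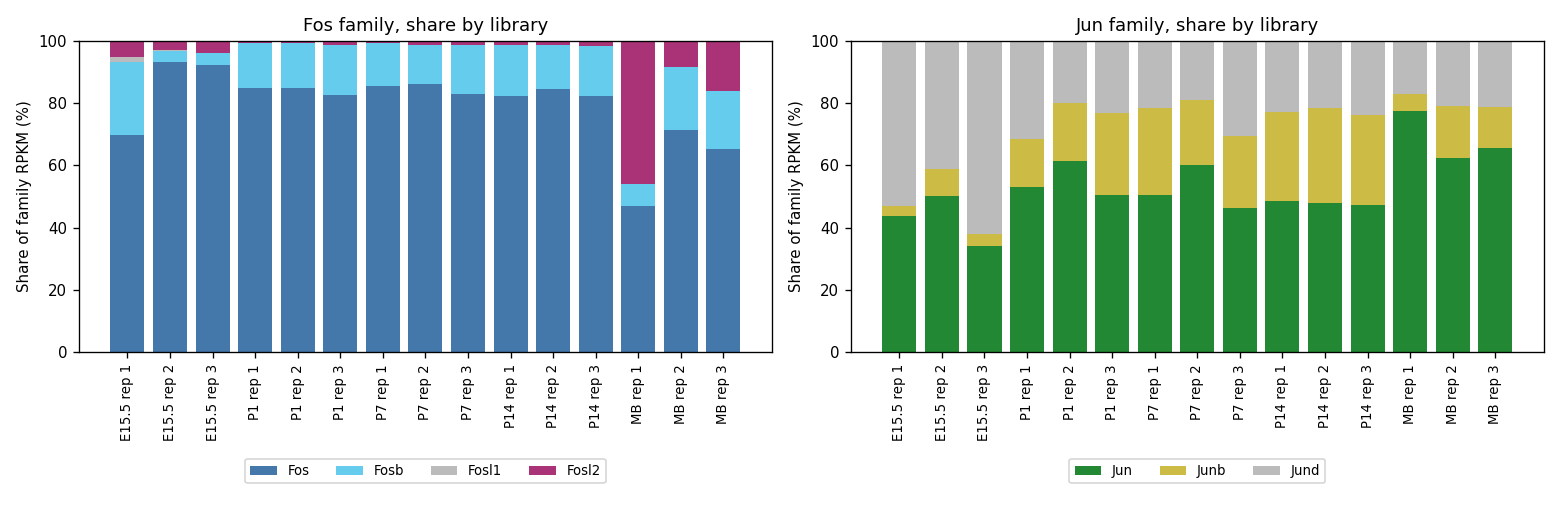
Share of each gene in the summed RPKM of the Fos family (left) and the Jun family (right), in percent, 1 bar per library. Fosl2 takes 8.38% to 46.1% of the Fos family in MB and at most 1.71% in the postnatal precursors, and Jund takes at least 41.2% of the Jun family at E15.5.

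Other rapidly induced genes were counted in a list of 30, of which 28 were tested. In P1 against E15.5, 17 of the 28 were called higher and 1 lower, where 25.4% and 20.9% of all genes were. The median log2 change was 1.26 (all genes 0.031). The called genes with the largest changes were Egr4 (5.12 ± 3.34 CPM at P1 against 0.0541 ± 0.0469 CPM at E15.5), Klf2, a factor known from endothelial and immune cells among others (31.6 ± 22.7 against 0.499 ± 0.273 CPM), and Zfp36, which destabilises mRNAs (47.0 ± 30.4 against 0.868 ± 0.301 CPM, SD, n = 3). In P7 against P1, none of the 28 was called. In P14 against P7, 4 were called higher (5.81% of all genes) and none lower (4.51%), with a median of 0.90 (all genes -0.0050). In P14 against P1, 5 were higher (3.63% of all genes) and none lower (5.31%), with a median of 1.10 (all genes 0.0052). Gadd45b, a stress and growth arrest gene, was among both, at log2 changes of 1.53 (FDR 0.027) and 1.65 (FDR 0.023), and each of these calls was lost in 5 of 6 fits that left out 1 library. Such fits gave 0 to 2 higher calls among the 28 in P14 against P7 and 0 to 13 in P14 against P1, where the 13 were without P1 replicate 3. With only the groups compared there were 18 in each. In MB against P14, 19 of the 28 were lower (27.2% of all genes) and 2 higher (22.9%). The median was -1.20 (all genes 0.012). Sik1, a kinase that restrains CREB coactivators, changed by -3.49 (FDR 4.9e-05) and Klf2 by -3.40 (FDR 0.0024), and without MB replicate 2 these were -4.69 and -5.01. Myc changed by 3.39 (FDR 9.4e-06), at 138 ± 86.2 CPM in MB against 13.1 ± 1.20 CPM at P14 (SD, n = 3). In MB against P7, 4 were lower (20.7% of all genes), with Sik1 at -2.36, and 2 higher (13.7%), Myc at 2.63 and Ier5 at 1.97. Sik1 was at -3.56 without MB replicate 2, where 9 were lower, and 1 was lower without MB replicate 1. With MB replicate 1 as the only MB library, inside its counting set, 16 were lower, Sik1 stood at -3.86, Myc at 0.93 and Ier5 at 0.94.

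Of 22 genes for SRF, CREB and MEF2 factors, their coactivators and kinases, 6 were called higher and 3 lower at P1 against E15.5. Over all genes, 25.4% were called higher and 20.9% lower. The median log2 change was 0.29 (all genes 0.031). Mapk3, which encodes the kinase ERK1, fell by 2.32 on the log2 scale (FDR 1.8e-06), and Elk3, a partner of SRF, rose by 1.44 (FDR 0.00025). Camk4, a calcium-dependent kinase that phosphorylates CREB, rose by 1.68 (FDR 0.0069), but by 0.91 without P1 replicate 3 (FDR 0.065). Mapk3 was the 1 gene of the 22 called in P7 against P1 (1.19, FDR 0.014), a call lost without P1 replicate 2 or P7 replicate 2 (FDR 0.0998 and 0.064). None of the 22 was called in P14 against P7 or in P14 against P1, where 4 were higher without P1 replicate 3. In MB, 4 were lower than P7 (20.7% of all genes) and 4 lower than P14 (27.2%), and Mapk3 was higher than P14 (1.07, FDR 0.00068). Camk4 changed by -2.06 against P7 and by -3.00 against P14, at 33.5 ± 16.9 CPM in MB, 139 ± 16.2 CPM at P7 and 266 ± 38.3 CPM at P14 (SD, n = 3). With 1 library left out, 1 to 5 of the 22 were lower than P7 and 2 to 6 lower than P14, with 2 in each without MB replicate 2. With only the groups compared, 1 was lower than P7.

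Genes induced later by activity did not go 1 way. Of 18 tested, 3 were called higher and 3 lower at P1 against E15.5, where 25.4% and 20.9% of all genes were. The median log2 change was -0.27 (all genes 0.031). Rasgrp1, an activator of Ras, rose by 2.09 (FDR 0.00011), and the sorting receptor gene Sorcs3 fell by 1.69 (FDR 9.9e-05). Kcna1, a potassium channel gene, was called higher (1.56, FDR 0.048), but stood at 0.066 (FDR 0.91) without P1 replicate 3, where 6 were lower. None was called in P7 against P1. In P14 against P7, 2 were called higher and 1 lower, where 5.81% and 4.51% of all genes were. The lower was Sorcs3 (-0.92, FDR 0.036), a call lost with any 1 of the 6 libraries left out (FDR 0.074 to 0.15). The higher were the synaptic genes Nptx1 (2.34, FDR 0.0095) and Syt4 (2.03, FDR 0.014), with FDRs of up to 0.058 and 0.067 when 1 library was left out. In P14 against P1, Sorcs3 was the 1 call (-1.34, FDR 0.0088), lost in 3 of 6 such fits, and 7 were higher without P1 replicate 3. In MB, 7 were lower and 3 higher than P7, where 20.7% and 13.7% of all genes were. Against P14, 8 were lower and 1 higher, where 27.2% and 22.9% of all genes were. With 1 library left out, 5 to 6 were lower and 0 to 3 higher than P7. Without MB replicate 1, 5 were lower and 2 higher than P7, and 9 lower and 2 higher than P14. With only the groups compared, 4 were lower and 1 higher than P7. Scg2, which encodes a secretory granule protein, stood at 6.66 ± 4.203 CPM in MB, 122 ± 14.7 CPM at P7 and 126 ± 15.6 CPM at P14 (SD, n = 3). Rasgrp1 (-3.77 against P7 and -4.10 against P14) and Kcna1 (-3.28 and -4.37) were also lower.

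Heat shock and protein folding genes were counted as another group that handling of cells can raise, and 14 of a list of 16 were tested. At P1 against E15.5, 1 was called higher and 3 lower, where 25.4% and 20.9% of all genes were. The median log2 change was -0.29 (all genes 0.031). Bag3, a partner of heat shock protein 70, rose by 1.83 (FDR 2.1e-05), and Hsph1 fell by 0.53 (FDR 0.0077). Hspa8, the constitutive heat shock protein 70, fell by 2.33 (FDR 6.7e-05) with the gene table and by 0.90 (FDR 0.0035) with the transcript table. The summed level of the list was 1613 to 1955 CPM at E15.5 and 989 to 1103 CPM at P1, of which Hspa8 made up 740.2 to 1026 and 162 to 191 CPM. In P7 against P1, Hspa8 was the 1 call (1.46, FDR 0.029), which was lost with the transcript table (0.44, FDR 0.28). In P14 against P7, 1 was called lower and 1 higher, where 4.51% and 5.81% of all genes were. In P14 against P1 none was higher (3.63% of all genes) and 1 lower (5.31%). Each of these lower calls was lost in 5 of 6 fits that left out 1 library. In MB, 5 were higher and 3 lower than P7, where 13.7% and 20.7% of all genes were, and 4 were higher and 3 lower than P14, where 22.9% and 27.2% were. With 1 library left out, 1 to 4 were higher and 1 to 3 lower than P7, with 1 higher without MB replicate 2 and with only the groups compared. Against P14, 2 were higher without MB replicate 2. Hspa8 was 0.86 higher than at P14 with the gene table and 0.43 (FDR 0.11) with the transcript table. Hmox1, which degrades heme, changed by 1.69 against P7 and 1.43 against P14, and by 0.85 (FDR 0.025) and 0.60 (FDR 0.085) without MB replicate 1. Hspd1, a mitochondrial chaperone, was 0.87 higher than at P14 (FDR 0.00014).

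**Figure D5:**
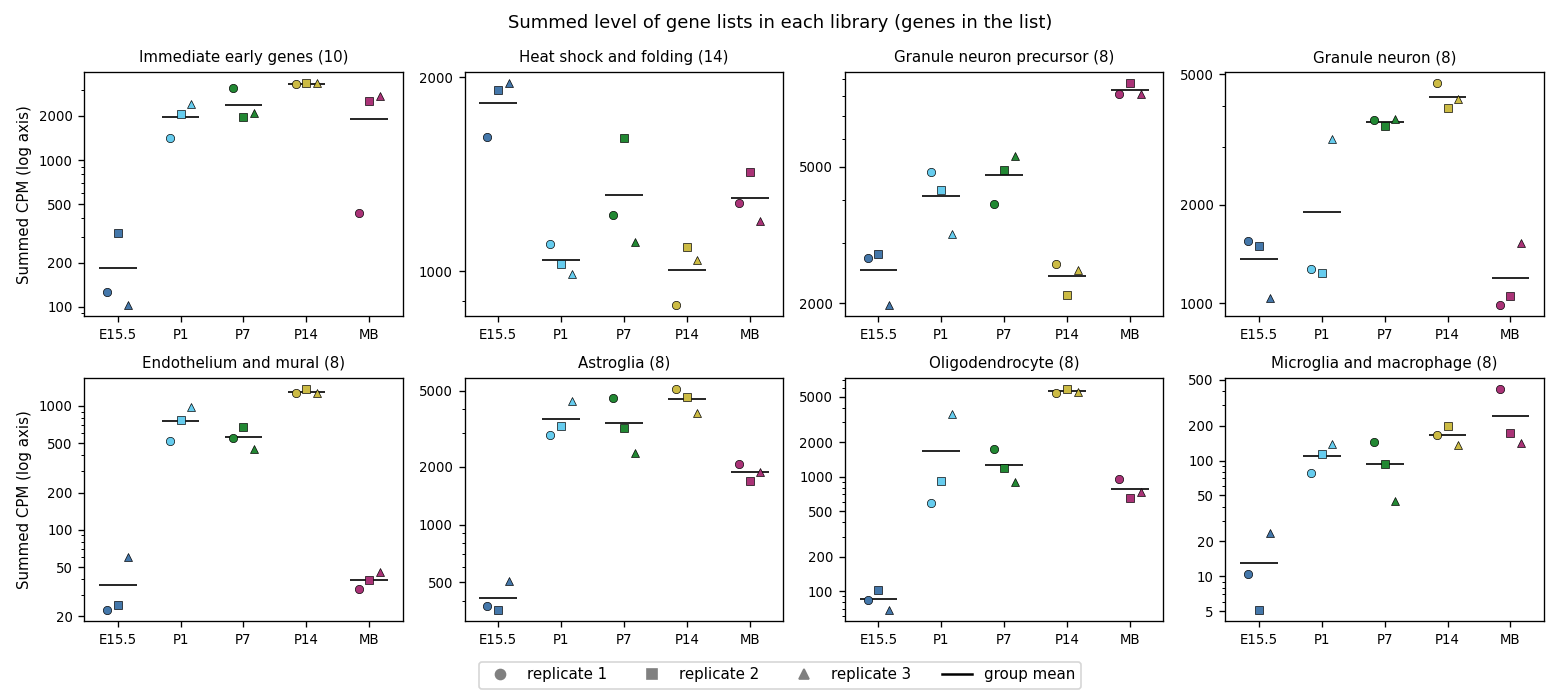
Summed CPM of the immediate early genes and of 7 other gene lists in each library, on log axes. Each symbol is 1 library, its shape gives the replicate number and the line is the group mean. The immediate early sum runs from 102.9 to 319.5 CPM at E15.5 and from 3310 to 3333 CPM at P14, and MB replicate 1 stands at 432.5 CPM beside 2548 and 2731 CPM.

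Among the 10 genes, Junb followed Fos most closely over the 15 libraries (Pearson r of log2 CPM 0.974), then Nr4a1 (0.972), Fosb (0.964) and Egr1 (0.929). Arc (0.689) and Fosl2 (0.676) followed it least. After the group means were subtracted, r to Fos was 0.963 for Junb and 0.667 for Npas4, the highest and the lowest. Among the 11566 other genes that averaged 5 CPM or more, the 5 most like the mean profile of the 10 were Spry1, an inhibitor of ERK signalling (0.975), Myh14 (0.973), Zfp36 (0.968), Zfp36l2 (0.955) and Lrp5 (0.951). After the group means were subtracted they were Caln1 (0.976), Pank1 (0.961), Gprc5b (0.959), Klhl18 (0.952) and Ebf4 (0.942). These correlations describe 15 libraries that share 5 groups, and MB replicate 1 has the widest deviation among them.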

How the data were processed

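The deposited gene table holds raw read counts per gene for 15 libraries, and the authors' transcript table holds raw read counts per transcript. The submitters' processing notes name Trimmomatic, TopHat, StringTie, HTSeq and the mm9 build. The strand setting is not given in the sources used here. Per the file's summary lines, between 39.5% and 55.4% of the records of a library fell in genes, and these lines were left out of library sizes and tests.

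Counts were tested with edgeR 4.0.16 in R 4.3.3 (quasi-likelihood F-test, TMM scaling, filterByExpr with a minimum count of 10 and a minimum total of 15). All 15 libraries shared 1 estimate of spread with 10 residual degrees of freedom, and p-values were adjusted by Benjamini-Hochberg over the 15259 genes that passed. The threshold was an FDR of 0.05. The procedure was tested on simulated counts. RPKM is CPM per kilobase of exon of the transcript with the most counts. Log2 CPM for spread and correlation used a prior count of 2. Alternatives were DESeq2 1.42.0, other size factors, no filter, the replicate number as a block, each library left out, only the groups compared, the transcript table and 1 counting set.

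The members and gene lists were chosen with earlier results of these data known. All 10 members are named. Of each other list, at most the 3 called genes with the largest change among those with a mean of at least 5 CPM were eligible for naming in a comparison.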

Additional observations from a re-analysis of the deposited data

How the results depend on the processing

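The count of 9 immediate early genes higher at P1 than at E15.5 was 8 or 9 under every alternative run, that of 4 lower in MB than at P14 was between 3 and 5, and that of 9 differing among the ages was between 8 and 10. For P7 against P1, the postnatal ages alone gave 1 higher call, Egr2 at 0.63 (FDR 0.032). For P14 against P7, only the groups compared gave 5, and leaving out 1 library gave 0 to 0. For P14 against P1, no filter, the replicate block and DESeq2 each gave 2, only the groups compared gave 7, 1 counting set and the postnatal ages alone each gave 8, and leaving out 1 library gave 0 to 3. For MB against P7, leaving out 1 library gave 1 to 2 higher and 0 to 2 lower, the replicate block 1 lower (Fos at -2.07, FDR 0.040), and 1 counting set 8 lower. For MB against P14, 1 counting set gave 3 higher and leaving out 1 library 0 to 2. The cause was not tested. The share of all genes called was counted only for the fits where it is printed. In the other fits, the number of members called has no share beside it and cannot be read as particular to these genes.

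Changes of direction were all in genes that were not called with all libraries. Npas4 in P7 against P1 was at -0.0037 with DESeq2 size factors in edgeR and at -0.0024 with DESeq2, and Egr2 in P14 against P7 was at 0.0047 and 0.0049. Egr1 in P14 against P1 was at -0.024 with the transcript table, -0.0015 with only the groups compared, -0.011 in 1 counting set and -0.019 with the postnatal ages alone. In 1 counting set, Jun (-0.93) and Egr2 (-2.35, FDR 0.0070) turned in MB against P7, and Jun (0.12) and Arc (0.27) in MB against P14. Egr1 in MB against P14 was at -0.16 with the replicate block. Leaving out 1 library spanned, in P7 against P1, -0.015 to 0.57 for Fos, -0.099 to 0.51 for Fosb, -0.062 to 0.45 for Jun, -0.41 to 1.20 for Npas4 and -0.20 to 0.89 for Nr4a1. It spanned -0.069 to 0.054 for Egr2 in P14 against P7 and -0.094 to 0.11 for Egr1 in P14 against P1. In MB against P7 it spanned -0.98 to 0.32 for Egr1, -0.94 to 0.12 for Arc and -0.76 to 0.11 for Npas4, and in MB against P14 -0.62 to 0.096 for Jun, -0.71 to 0.59 for Egr1 and -0.81 to 0.24 for Arc.

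Libraries share replicate numbers, but no comparison had every same-numbered pair above 0.1: r of their deviations from the group means ran from -0.31 to 0.33 over 30 pairs. Among the members, the replicate block changed no other count of calls than those given. In the other gene lists it changed counts in both directions. Heat shock genes called higher in MB than at P7 went from 5 to 2. Genes for SRF, CREB and MEF2 factors called lower in MB than at P14 went from 4 to 5. Where an arm kept 1 library, it was assumed to vary like the other groups. Low counts limit Egr2 at E15.5, where the 3 libraries held 5 to 29 counts.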

Other observations

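The 8 Purkinje cell markers summed to 107 to 211 CPM in MB and to 266 to 432 CPM at P14, and Calb1, a defining marker among them, stood at 0.159 to 0.244 CPM against 57.3 to 103 CPM. The markers of GABAergic interneurons summed to 34.6 to 54.7 CPM in MB and to 163 to 241 CPM at P14.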
